A study of Homo sapiens with 8 samples.

Results

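Ribosome biogenesis genes of the MYC program were examined in SUIT2, a human pancreatic ductal adenocarcinoma (PDA) cell line in which the homeobox transcription factor EN1 was targeted. The group holds 41 genes of the 25702 listed in each count file. They were taken from a written list of nucleolar, ribosome assembly and nucleotide synthesis genes known as MYC targets, and all 41 symbols were matched to an NCBI gene number in the files. The mRNA of 8 samples was sequenced, 1 library each. Of these, 4 were labelled shScr (scramble shRNA, the control), 2 shEN1 #1 and 2 shEN1 #2, which carry independent shRNAs against *EN1*. The *EN1* shRNAs were in a lentiviral vector with a puromycin marker. The vector of the scramble shRNA and the selection of these cells are not given in the sources used here. The labels give neither the time after transduction nor whether replicates were separate cultures. The p-values therefore weigh a difference between labels against the spread between these libraries, which may be technical.

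Ribosomes are assembled in the nucleolus. RNA polymerase I makes a long precursor RNA there, small nucleolar ribonucleoproteins (snoRNPs) mark and modify it, and assembly factors cut and fold it into the small and the large subunit. Cells also need nucleotides for this RNA and polyamines, which bind it. The transcription factor MYC drives many of these genes, often through the E-box, the DNA word CACGTG, close to their start sites, and the program is used as a readout of MYC activity in PDA and other tumors.

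To see how the genes carry this word, RefSeq promoter windows (GRCh38.p14, from 250 bases before to 50 after a start site) were searched for CACGTG, which reads the same on both strands. Windows were found for 34 of the 41 genes. At least 1 E-box was present in 18 of them (52.9%), compared with 8.77% of all 27305 genes with windows, 12.5% of the 10915 tested for expression and 26.3% of 114 other genes of the same pathways. Genes can have several windows. With 1 window, 52.4% of 21 members and 10.4% of 7818 tested genes held the word. The members were chosen as known MYC targets, so a higher share among them may be built into the choice. The other members, without a window, were *NOLC1*, *NOP58*, *RRP12*, *BOP1*, *RRS1*, *DDX18* and *IMPDH2*.

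The sequences below show the word, in capitals, with its flanks in genes of each role. They are given 5′ to 3′ on the strand of the gene, in GRCh38.p14 coordinates. Positions count from the start site as base 1. Those of *FBL* (chr19:39846356-39846385, minus strand), *UTP20* (chr12:101280083-101280112, plus strand), *PES1* (chr22:30591880-30591909, minus strand), *GNL3* (chr3:52686026-52686055, plus strand) and *GAR1* (chr4:109815781-109815810, plus strand) had the first base of the word at 7, -10, 14, 7 and 32. *ODC1* held it at -29 (chr2:10448024-10448053, minus strand) and again at 6 (chr2:10447990-10448019, minus strand), and *SRM* farther upstream at -199 (chr1:11060200-11060229, minus strand).
GNL3: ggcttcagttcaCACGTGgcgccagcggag
FBL: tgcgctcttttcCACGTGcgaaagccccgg
GAR1: gggccagaggggCACGTGgcgccggtgagt
UTP20: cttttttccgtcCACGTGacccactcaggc
PES1: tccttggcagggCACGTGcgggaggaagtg
ODC1 first: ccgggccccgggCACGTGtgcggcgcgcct
ODC1 second: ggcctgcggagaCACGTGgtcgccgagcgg
SRM: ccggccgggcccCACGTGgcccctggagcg

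*PPAT* and *PAICS*, which encode the first enzyme of purine synthesis and a later one, are read in opposite directions, and their windows held the same E-box. It lies 182 bases before the start of *PPAT* and at base 41 of *PAICS* (chr4:56435792-56435797). RefSeq gives several starts for *PAICS*, and this one lies 137 bases from that of *PPAT*. The shared site is printed on the strand of *PPAT* (chr4:56435780-56435809, minus strand), and the 136 bases between the start sites (chr4:56435616-56435751, plus strand) follow, because the expression of these neighbors is set side by side further on.
PPAT: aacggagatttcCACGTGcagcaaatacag
Between PPAT and PAICS: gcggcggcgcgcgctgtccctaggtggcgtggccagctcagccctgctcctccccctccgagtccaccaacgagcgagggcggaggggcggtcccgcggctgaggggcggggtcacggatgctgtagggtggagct

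**Figure D1:**
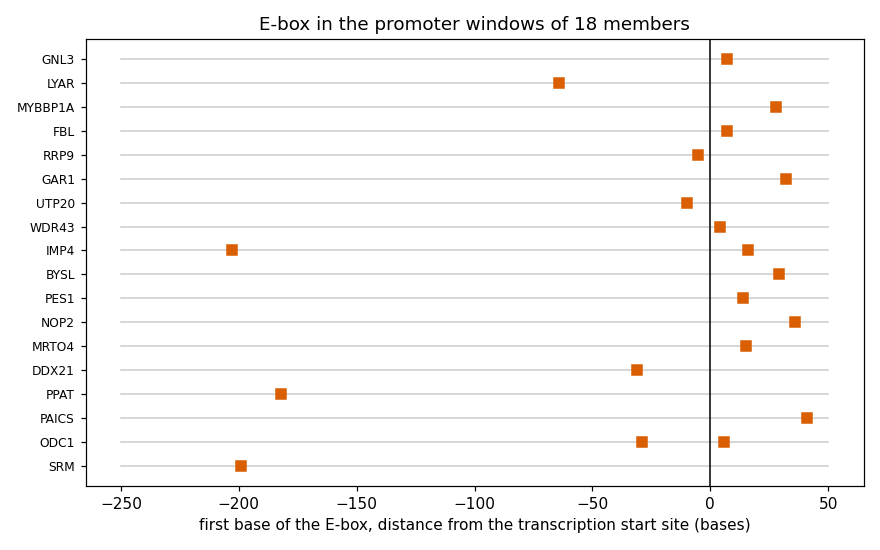
Position of each E-box (square) in the promoter windows of the 18 members that hold one; the x axis is the distance of its first base from the start site in bases, and grey lines span the window. Most squares lie near the start site, and 1 of IMP4 (-203) and those of PPAT (-182) and SRM (-199) lie farther upstream.

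Library totals lay between 33423590 and 37810604 counts, of which the members took 0.724% to 0.911%. The level of the targeted gene did not separate the labels. *EN1* had 4.10, 4.50, 4.94 and 2.51 CPM in shScr replicates 1 to 4, 5.77 and 5.41 CPM in shEN1 #1 and 1.35 and 6.70 CPM in shEN1 #2 (CPM, the counts of a gene scaled to a fixed library total with edgeR's TMM factors), with a log2 fold change of 0.26 (SE 0.43). Both libraries of shEN1 #1 and replicate 2 of shEN1 #2 lay above all shScr libraries, and only replicate 1 of shEN1 #2 lay below them. Libraries are therefore named by label throughout. A difference between the labels, or its absence, cannot be read as the response of these genes to lower *EN1* mRNA. The paper reports depletion of *EN1* in SUIT2 with independent shRNAs, with its mRNA measured by quantitative PCR. It also reports differentially expressed genes by RNA-seq of SUIT2 after the knockdown. In mouse organoids it reports MYC target sets enriched in the scramble control and no significant change of c-MYC protein. A pair with different labels, shScr replicate 4 and shEN1 #2 replicate 1, were nearer to each other than any other pair (root mean square difference of log2 CPM over all genes tested 0.395, compared with 0.736 to 0.841 between them and the other 6). Their TMM factors were 1.06 and 1.07 (0.962 to 1.00 in the others). Epithelial markers were high, with summed *EPCAM*, *CDH1* and keratin levels of 11442 to 18546 CPM. *KRT7*, 1 of these markers, was lowest in the same pair, at 198 and 192 CPM, as were 19.2% of all genes. The sum of the markers did not set the pair apart. It was 11698 and 11442 CPM there, 11979 CPM in shScr replicate 3 and 11678 CPM in shEN1 #1 replicate 1. In the remaining libraries it was 14918 CPM or more. Summed leukocyte, fibroblast and endothelial markers reached at most 3.99, 4.22 and 0.676 CPM, and the defining markers *PTPRC*, *CD3E*, *COL1A2*, *DCN*, *LUM* and *CDH5* held 0 counts in all 8 libraries.

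All 41 members were expressed and passed the filter on low counts. Per kb of the Ensembl canonical transcript (GENCODE 44 on GRCh37, the build of the alignment), the histone and ribosome chaperone *NPM1* was highest, at a mean of 1112 CPM per kb (range 843 to 1480.1 over the 8 libraries), followed by nucleolin, *NCL*, at 302 (241 to 348). *NHP2* (208), *IMPDH2* (205), *FBL* (156) and *SRM* (139) came next. At the low end were *POLR1B* (13.7), *UTP20* (12), *WDR12* (7.48) and *PPAN* (2.28). The canonical transcripts of *POLR1B*, *UTP20* and *WDR12* are long (7527, 9031 and 8068 bases). Each length is that of a single transcript, and the annotation used for counting is not known, so the order depends on this choice. The order was mostly a gradient. Of the 39 neighboring pairs among the 40 members with a length, 36 had overlapping ranges, and the exceptions were *NPM1* above *NCL*, *NCL* above *NHP2* and *WDR12* above *PPAN*. *PPAN* shares exons with a read-through gene into *P2RY11*. That read-through gene held 0 counts in every library and *P2RY11* 75 to 169, so how reads of the shared exons were assigned is uncertain. *BOP1* had no canonical transcript in this annotation and was left out of the order.

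**Figure D2:**
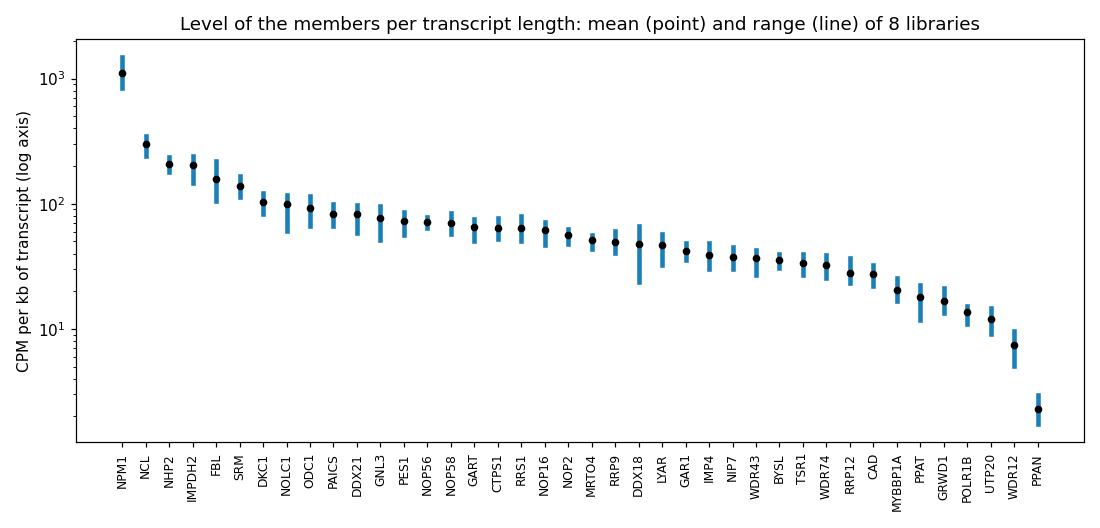
Level of 40 members in CPM per kb of canonical transcript (log axis), ordered from highest to lowest, with the mean of the 8 libraries as points and the range as lines. NPM1 stands above the rest and PPAN below.

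No member was called between the libraries labelled shEN1 and shScr. By edgeR's quasi-likelihood test (Benjamini-Hochberg over the 14333 genes tested), 0 of 41 members and 0.00% of all genes had an adjusted p below 0.05, and each member's adjusted p was 1.00. At an unadjusted p below 0.05 there were also 0 members (0.307% of all genes). DESeq2 called 0 members (0.0140% of the genes with an adjusted p). Log2 fold changes ran from -0.072 for *FBL* to 0.22 for *SRM*, with standard errors of 0.11 to 0.31. The differences were smaller than the pooled SD of the labels for 40 of the 41. Groups overlapped in every member, where 0.167% of all genes had all 4 libraries labelled shEN1 above all shScr and 0.251% had them below.

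Small differences leaned one way. Of the 41 members, 35 had a log2 fold change above 0 (48.9% of all genes did), with a median of 0.058, compared with -0.0028 over all genes. The lean changed with the libraries included. Without shScr replicate 4 the count above 0 fell to 17 and the median to -0.0078. Without both shScr replicate 4 and shEN1 #2 replicate 1 it was 31, without shScr replicate 3 and shEN1 #1 replicate 1 it was 23, and without these 4 libraries it was 21. A block for the replicate number gave 13. Called members numbered 0 in each of these fits. Members numbering 6, *BYSL*, *CAD*, *MYBBP1A*, *NOP2*, *RRS1* and *SRM*, were above 0 in the main fit and under all 18 alternatives.

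**Figure D3:**
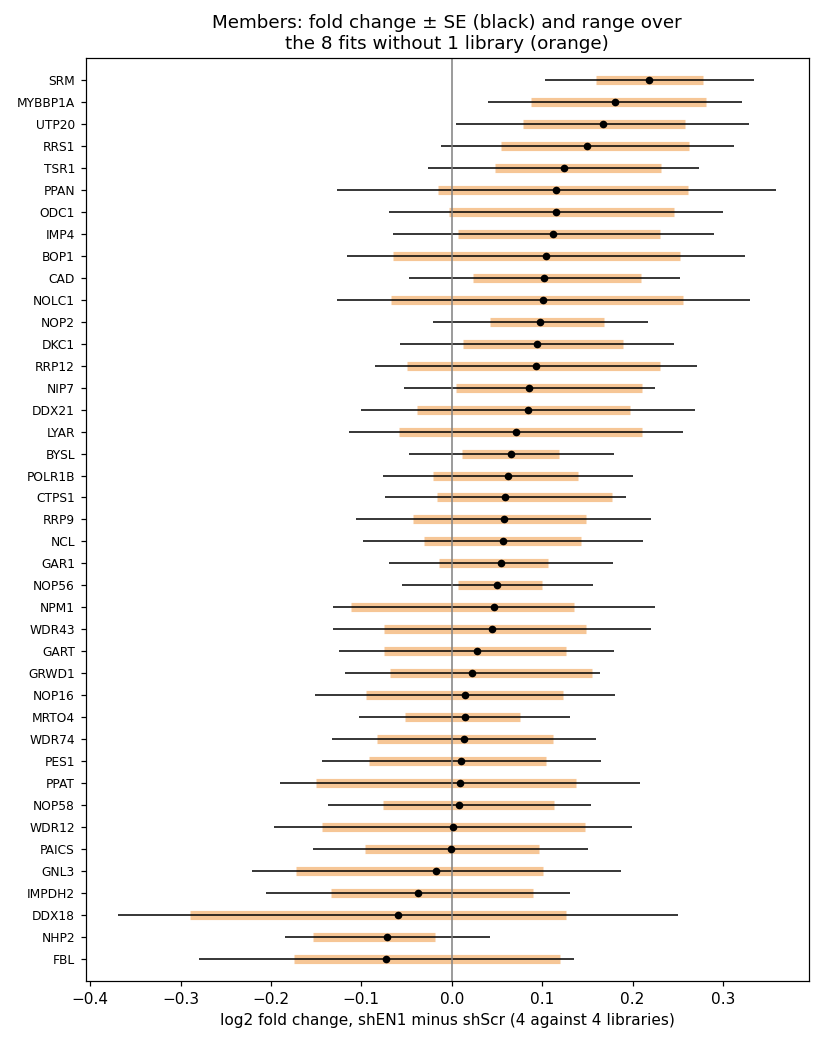
Log2 fold change of each member between 4 libraries labelled shEN1 and 4 labelled shScr (points, with SE as black lines), and the range over the 8 fits that each left out 1 library (orange bars). SRM is at the top (0.22) and FBL at the bottom (-0.072), and the orange bars of many members cross 0.

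Levels of the members varied between the 8 libraries. The ratio of the highest to the lowest library had a median of 1.52 and ran from 1.24 in *NOP56* to 2.82 in *DDX18*, and exceeded 1.5 in 26 of 41. shScr replicate 4 was the lowest of the 8 libraries for 23 members (14.8% of all genes) and the highest for 0. shEN1 #2 replicate 1 was the lowest for 8 (16.3% of all genes) and the highest for 0. Together this pair held both lowest places in 21 members (51.2%), compared with 19.2% of all genes, and both highest places in 0 (18.9% of all genes). The library labelled shEN1 #2 replicate 2 was below the 8-library mean CPM for 3 members (*NIP7*, *NOP58* and *PAICS*), and replicate 1 of the same construct was below it for 37. Because the pair was singled out by its values, these counts are a description with no test. Summed over the members, levels were 9478, 9104, 7944 and 6813 CPM in shScr replicates 1 to 4, 9333 and 8951 CPM in shEN1 #1 and 7126 and 9151 CPM in shEN1 #2.

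**Figure D4:**
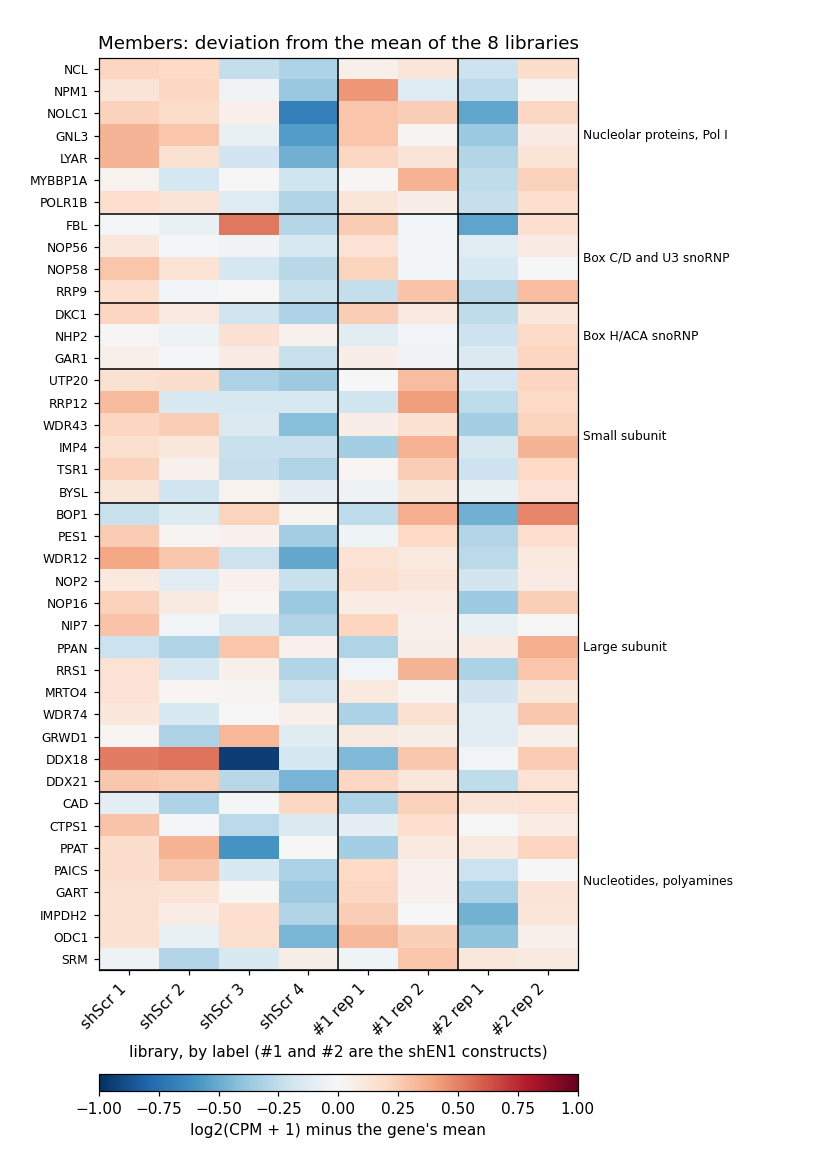
Deviation of each member (rows, by role) from its mean over the 8 libraries (columns, by label), in log2(CPM + 1); red is above and blue below the mean. The columns of shScr 4 and of #2 rep 1 are mostly blue, while DDX18 and PPAT are lowest in shScr 3.

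The 7 nucleolar genes summed to 3854, 3873, 3165 and 2595 CPM in shScr replicates 1 to 4, 4074 and 3479 CPM in shEN1 #1 and 2810.3 and 3674 CPM in shEN1 #2. *NCL*, which binds the precursor RNA and chromatin of the ribosomal genes (Entrez 4691, chr2:232318242-232329195 of GRCh37), had 1365, 1345, 993 and 945 CPM in shScr replicates 1 to 4, 1219 and 1274 CPM in shEN1 #1 and 1017 and 1323 CPM in shEN1 #2. *NPM1*, which shuttles ribosomal subunits and histones, had 1582, 1670.4, 1409.9 and 1113 CPM in shScr, 1954 and 1326 CPM in shEN1 #1 and 1207 and 1478 CPM in shEN1 #2. Both were lowest in shScr replicate 4, and the labels overlapped. *NPM1* has processed copies elsewhere in the genome, with which it could share reads. *NOLC1*, a chaperone of snoRNPs, had 424, 410.1, 376 and 225 CPM in shScr, 439.7 and 429 CPM in shEN1 #1 and 252 and 418 CPM in shEN1 #2. It had 6 libraries at 376 CPM or more and a pair at 225 to 252 CPM, 1 library of each label. *GNL3* (nucleostemin), a nucleolar GTPase of proliferating cells, had 185, 176, 138 and 98.6 CPM in shScr, 176 and 149 CPM in shEN1 #1 and 112 and 154 CPM in shEN1 #2, again lowest in the same pair. The labels' means were 149 ± 39.4 CPM (SD, n = 4) in shScr and 148 ± 26.6 CPM (SD, n = 4) in shEN1 (log2 fold change -0.017, SE 0.20).

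*MYBBP1A*, which binds MYB and acts in the nucleolus, had 94.5, 81.3, 92.5 and 80.1 CPM in shScr, 92.6 and 117 CPM in shEN1 #1 and 76.9 and 108 CPM in shEN1 #2. Its means were 87.1 ± 7.44 CPM (SD, n = 4) in shScr and 98.7 ± 17.7 CPM (SD, n = 4) in shEN1, and its log2 fold change of 0.18 (SE 0.14, unadjusted p = 0.228 from edgeR) was the second highest of the members and ran from 0.087 to 0.28 when 1 library was left out. *POLR1B*, the second largest subunit of RNA polymerase I, ranged from 82.7 to 115 CPM, and *LYAR*, a nucleolar zinc finger protein, from 50.6 to 89.8 CPM. Of these 7 nucleolar genes 6 were above 0, and 0 were called.

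**Figure D5:**
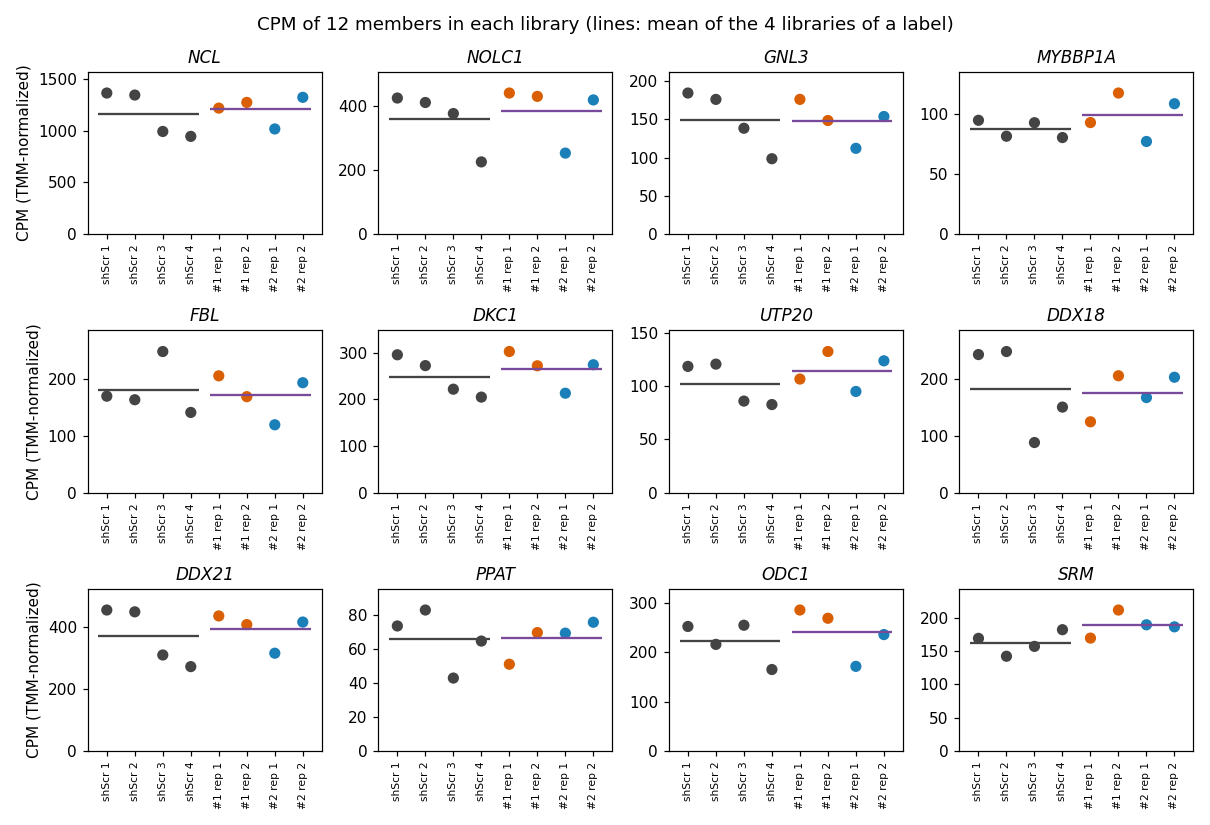
CPM of 12 members in each of the 8 libraries (grey shScr, orange shEN1 #1, blue shEN1 #2), with the mean of each label as a line, on axes that start at 0. Libraries of the same label spread more widely than the lines differ; in NOLC1 and GNL3 the lowest points are shScr 4 and #2 rep 1, in DDX18 and PPAT shScr 3 and #1 rep 1.

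The 4 box C/D genes were less uniform. *FBL* (fibrillarin), the methyltransferase of box C/D snoRNPs (Entrez 2091, chr19:40325098-40337019), had 169, 163, 248 and 141 CPM in shScr replicates 1 to 4, 205 and 169 CPM in shEN1 #1 and 119 and 193 CPM in shEN1 #2. It was highest in shScr replicate 3 and lowest in shEN1 #2 replicate 1, a ratio of 2.08, and its log2 fold change was -0.072 (SE 0.21). The core proteins of the same particle were steadier. *NOP56* had 148, 134, 133 and 122 CPM in shScr, 151 and 134 CPM in shEN1 #1 and 127 and 145 CPM in shEN1 #2, and *NOP58* had 169.7, 154, 124 and 115 CPM in shScr, 163 and 137 CPM in shEN1 #1 and 125 and 139.8 CPM in shEN1 #2. Their log2 fold changes were 0.051 and 0.0085. *RRP9*, a protein of the U3 snoRNP that cuts the precursor, had 85.0, 74.3, 75.8 and 64.7 CPM in shScr, 63.8 and 92.3 CPM in shEN1 #1 and 62.2 and 93.7 CPM in shEN1 #2, so the libraries within each construct lay farther apart than the label means (74.9 and 78.0 CPM).

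The 3 box H/ACA genes summed to between 391 CPM in shEN1 #2 replicate 1 and 508 CPM in shEN1 #2 replicate 2. In these snoRNPs, which convert uridine to pseudouridine, *DKC1* encodes the enzyme dyskerin (Entrez 1736, chrX:153991139-154005964). It had 296, 273, 222 and 205 CPM in shScr replicates 1 to 4, 303 and 272 CPM in shEN1 #1 and 213 and 274 CPM in shEN1 #2, with the lowest values in shScr replicate 4 and shEN1 #2 replicate 1. Its partner *NHP2* had 163, 156, 180.0 and 166 CPM in shScr, 149.9 and 159 CPM in shEN1 #1 and 139.7 and 184 CPM in shEN1 #2. It was the second lowest member by log2 fold change (-0.071, SE 0.11, and -0.15 to -0.019 with 1 library left out), and unlike the other two it was not lowest in shScr replicate 4. *GAR1* had 43.9, 41.7, 44.8 and 36.1 CPM in shScr, 44.4 and 41.2 CPM in shEN1 #1 and 38.2 and 49.2 CPM in shEN1 #2, and its labels overlapped (log2 fold change 0.055, SE 0.12). The level of *NHP2* in shScr replicate 4 lay at the mean of its label, 166 CPM, unlike that of *DKC1* (mean 249 CPM).

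All 6 small subunit factors had a log2 fold change above 0 in the main fit, with a median of 0.10, and 0 were called. Their sum ran from 535 CPM in shScr replicate 4 to 788 CPM in shEN1 #1 replicate 2. *UTP20*, a scaffold of the early small subunit particle (Entrez 27340, chr12:101673883-101780396), had 119, 121, 86.0 and 82.8 CPM in shScr replicates 1 to 4, 107 and 133 CPM in shEN1 #1 and 95.1 and 124 CPM in shEN1 #2. The means were 102 ± 20.5 CPM (SD, n = 4) in shScr and 115 ± 16.9 CPM (SD, n = 4) in shEN1, and the log2 fold change was 0.17 (SE 0.16, unadjusted p = 0.327 from edgeR), with a range of 0.079 to 0.26 over the fits that left out 1 library. The highest libraries were labelled shEN1, but shEN1 #2 replicate 1 lay below both shScr replicates 1 and 2. *TSR1*, which holds late small subunits in an immature state, had 165, 144, 119.7 and 114 CPM in shScr, 142 and 167 CPM in shEN1 #1 and 121 and 161 CPM in shEN1 #2. *WDR43*, of the same early particle as *UTP20*, had 148, 151, 115 and 94.1 CPM in shScr, 133 and 142 CPM in shEN1 #1 and 100.3 and 148 CPM in shEN1 #2, with its lowest values in the pair that stood apart. *IMP4* and *RRP12* were patterned otherwise. *IMP4*, a U3-associated protein, had 103, 99.7, 78.9 and 78.9 CPM in shScr, 72.8 and 118 CPM in shEN1 #1 and 82.7 and 117 CPM in shEN1 #2, and was lowest in shEN1 #1 replicate 1. *RRP12*, which helps export both subunits, had 152, 109, 109 and 108 CPM in shScr, 106 and 163 CPM in shEN1 #1 and 102 and 139.7 CPM in shEN1 #2, so that shScr replicate 1 and shEN1 #1 replicate 2 were highest. *BYSL* ranged only from 53.0 to 67.6 CPM. Under the replicate block 5 of the 6 turned below 0.

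Of the 13 large subunit factors, 12 were above 0 (median 0.023) and 0 were called. Their sum ran from 1165 CPM in shScr replicate 4 to 1691 CPM in shScr replicate 1. *DDX21*, a helicase that acts in Pol I transcription and processing, had 455, 449.5, 310.2 and 273 CPM in shScr replicates 1 to 4, 436 and 408 CPM in shEN1 #1 and 316 and 417 CPM in shEN1 #2, lowest in shScr replicate 4. *DDX18*, another helicase (Entrez 8886, chr2:118572267-118589953), spread most of all members. It had 244, 249, 88.4 and 151 CPM in shScr, 125 and 206 CPM in shEN1 #1 and 168 and 204 CPM in shEN1 #2. The lowest values were in shScr replicate 3 and shEN1 #1 replicate 1, not in the pair that stood apart, and the log2 fold change was -0.059 (SE 0.31). *BOP1*, *PES1* and *WDR12* form 1 complex (PeBoW) that matures the large subunit. *BOP1* had 31.6, 33.7, 43.3 and 37.7 CPM in shScr, 30.9 and 47.8 CPM in shEN1 #1 and 26.2 and 52.4 CPM in shEN1 #2, and within shEN1 #2 its libraries differed by a factor of 2.00. *PES1* ranged from 128 to 195 CPM and *WDR12* from 41.2 to 77.6 CPM, and both were lowest in the pair that stood apart, so the 3 subunits were not all lowest in the same libraries. The nucleolar methyltransferase *NOP2* ranged from 127 to 168 CPM, *RRS1*, which brings the particle of the smallest ribosomal RNA to the subunit, from 86.8 to 137 CPM, and *MRTO4*, which holds the place of a stalk protein, from 89.8 to 116 CPM. *GRWD1* (71.8 to 113 CPM), *NIP7* (61.5 to 92.8 CPM), *NOP16* (40.8 to 63.0 CPM), *WDR74* (31.2 to 47.2 CPM) and *PPAN* (4.01 to 6.88 CPM) complete the group.

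Of the 8 enzymes of nucleotide and polyamine synthesis, 6 were above 0 and 0 were called, and their lowest libraries differed. *PPAT* (Entrez 5471, chr4:57259528-57301781) had 73.8, 83.2, 43.1 and 64.9 CPM in shScr replicates 1 to 4, 51.2 and 69.9 CPM in shEN1 #1 and 69.6 and 76.0 CPM in shEN1 #2, with the lowest values in shScr replicate 3 and shEN1 #1 replicate 1. *PAICS* (Entrez 10606, chr4:57302426-57330744), its neighbor across the shared promoter stretch printed above, had 592, 633, 472 and 421 CPM in shScr, 602 and 539 CPM in shEN1 #1 and 451 and 524 CPM in shEN1 #2, lowest in shScr replicate 4 and shEN1 #2 replicate 1. The neighbors thus had different lowest libraries, and both had the highest value in shScr replicate 2. *PPAT* and *PAICS* had log2 fold changes of 0.0092 (SE 0.20) and -0.00092 (SE 0.15). The coordinates given here for *PAICS* are those of its canonical transcript, which begins farther from *PPAT* than the start used for the printed stretch. *IMPDH2*, the rate-limiting enzyme of guanine nucleotide synthesis, had 372, 352, 377 and 272 CPM in shScr, 397 and 335 CPM in shEN1 #1 and 241 and 365 CPM in shEN1 #2. *GART*, which catalyzes several steps of purine synthesis, ranged from 167 to 248 CPM, and *CTPS1*, which makes CTP, from 149.7 to 220.3 CPM. *GART* and *IMPDH2* were lowest in the pair that stood apart.

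*ODC1*, the rate-limiting enzyme of polyamine synthesis and a classical MYC target (Entrez 4953, chr2:10580094-10588453), had 252, 216, 254 and 165 CPM in shScr replicates 1 to 4, 285 and 269 CPM in shEN1 #1 and 171 and 236 CPM in shEN1 #2. Both libraries of shEN1 #1 lay above all shScr libraries and the libraries of shEN1 #2 did not. This was not particular to *ODC1*. The same held for *NOLC1* (439.7 and 429 CPM in shEN1 #1, at most 424 CPM in shScr). *ODC1* was the member with the largest log2 fold change for shEN1 #1. The share of all genes with such a separation was not counted, so it is a description only. Against shScr its log2 fold change was 0.32 (SE 0.20) for shEN1 #1 and -0.12 (SE 0.21) for shEN1 #2, and the difference between constructs, -0.44 (SE 0.24), had an unadjusted p of 0.0908 and an adjusted p of 1.00 from edgeR. *SRM* (spermidine synthase; Entrez 6723, chr1:11114646-11120075) had 169, 142, 157 and 182 CPM in shScr, 169 and 211 CPM in shEN1 #1 and 189 and 186 CPM in shEN1 #2. Its means were 162 ± 17 CPM (SD, n = 4) in shScr and 189 ± 17.3 CPM (SD, n = 4) in shEN1. The log2 fold change of 0.22 (SE 0.12) was the highest of the members, with an unadjusted p of 0.0866 from edgeR, and all 4 libraries labelled shEN1 lay above the shScr mean. *SRM* and *CAD* did not drop in the pair that stood apart. *CAD*, which starts pyrimidine synthesis and was named here after its values were seen, had 188, 161, 198 and 231 CPM in shScr, 161 and 235 CPM in shEN1 #1 and 219 and 222 CPM in shEN1 #2, highest in shEN1 #1 replicate 2 and lowest in shEN1 #1 replicate 1.

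The constructs were next taken apart, in 1 fit with 3 groups. For shEN1 #1, 0 members were called (0.00% of all genes; 0 members and 0.656% at an unadjusted p below 0.05 in edgeR) and 36 members were above 0, with a median log2 fold change of 0.10 and extremes of -0.14 in *DDX18* and 0.32 in *ODC1*. For shEN1 #2, 0 members were called (0 members and 0.300% of all genes at an unadjusted p below 0.05) and 20 were above 0, with a median of -0.0018 and extremes of -0.21 in *FBL* and 0.30 in *PPAN*. Both comparisons share their control libraries. Between the constructs, 0 members were called (0 members and 1.07% of all genes at an unadjusted p below 0.05), and 8 of the 41 were higher in shEN1 #2. Replicate 1 of shEN1 #2 belongs to the pair that stood apart, and its part in this was not tested.

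The other genes of these pathways were taken from lists written with the members, and 0 of the 139 that were tested passed the threshold in either direction. *MYC* itself had 155, 127, 150.0 and 96.5 CPM in shScr replicates 1 to 4, 156 and 154 CPM in shEN1 #1 and 105 and 133 CPM in shEN1 #2, with a log2 fold change of 0.050 (SE 0.18). It was lowest in the pair that held both lowest places in 21 members (51.2%) and in 19.2% of all genes. A link between *MYC* and the members was not tested. Among the RNA polymerase I genes, 9 of 14 tested were above 0, with the largest change in *POLR1G* (0.28, SE 0.20) and *TAF1A* (0.16, SE 0.26). For other snoRNP assembly genes it was 7 of 10 (*ZNHIT6* 0.18, SE 0.21, and *NUFIP1* 0.15, SE 0.19). Small subunit genes were above 0 in 33 of 42 (*RIOK2* -0.21, SE 0.19, and *WDR75* 0.17, SE 0.17) and large subunit genes in 31 of 40 (*MDN1* 0.16, SE 0.18, and *SDAD1* 0.13, SE 0.15). Nucleotide and polyamine genes were above 0 in 9 of 23 (*ADSS1* -0.46, SE 0.80, and *PAOX* 0.40, SE 0.42), and the MYC network in 3 of 10 (*MXD4* -0.37, SE 0.62, and *MYCL* -0.33, SE 0.87). *POLR1H* (0 to 0.86 CPM), *WDR46* and *MYCN* (0 counts in every library) did not pass the filter. The members with an E-box had a median log2 fold change of 0.062 (15 of 18 above 0), and those with a window and no E-box 0.053 (15 of 16). This split is a description with no test.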

How the data were processed

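Read counts from 8 RNA-seq libraries of SUIT2 cells were analysed. Paired-end reads had been aligned by the authors with HISAT2 (hg19), who deposited whole-number counts per NCBI gene from featureCounts, with no normalization. The annotation, strand setting and versions are not given in the sources used here. The labels list mm9 and the design text names murine organoids, but titles and gene numbers are human. Symbols were matched by gene number through a RefSeq table (GRCh38.p14, names and promoters only), and 23696 of 25702 numbers had a symbol.

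Genes were filtered with filterByExpr (minimum count 10), scaled by TMM and tested with glmQLFTest of edgeR 4.0.16 in R 4.3.3, and DESeq2 1.42.0 was an alternative. SE is the log2 fold change over the square root of F. Libraries held 33423590 to 37810604 counts, and no member had fewer than 143 (*PPAN*) in any, so counting error is small for most members and larger for *PPAN*. Members were named by role, with values in all libraries for those of highest mean, widest ratio and largest fold change. The members and lists were chosen with earlier results of these data known. Alternatives were other scaling, filters, tests, groups, the replicate block and left-out libraries.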

Additional observations from a re-analysis of the deposited data

Results flagged for a closer look

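Within each label, the 4 libraries of every member were examined for 1 value far from the rest (a gap above Dixon's 95% critical value). Of 82 such groups 4 were set apart in this way, where chance gives about 4.1. Among the libraries labelled shEN1, replicate 1 of shEN1 #2 was low for *NOLC1* (252 CPM, compared with 418 to 439.7 CPM in the other 3), *LYAR* (57.7 CPM, compared with 77.8 to 81.9 CPM) and *WDR12* (49 CPM, compared with 63.3 to 65.6 CPM). Among those labelled shScr, replicate 1 was high for *RRP12* (152 CPM, compared with 108 to 109 CPM). The first 3 genes had their lowest value of all 8 libraries in shScr replicate 4, a library of the other label.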

How the results depend on the processing

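The count of called members and of called pathway genes stayed at 0 under all 18 alternatives, and each construct's count wherever it was run. At an unadjusted p below 0.05 the members numbered 0 in the reported fit, 9 without the 4 libraries named next (10.6% of all genes), and 0 or 1 under the others. Library size only and at least 10 counts in every library turned no member's sign. *PAICS* rose just above 0 with DESeq2's size factors or DESeq2 itself (0.00375 in both) and with no filter (0.00755), and *WDR12* fell just below it with 3 groups (-0.0021). The lowest count of any member in a library was 143 (*PPAN*).

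Whether the same replicate numbers mark paired libraries could not be decided. Deviations of same-numbered libraries from the means of their groups had correlations between -0.33 and 0.44. Each construct has only 2 libraries, whose deviations mirror each other, so these correlations can neither show nor exclude pairing. With the replicate block, which rests on 6 libraries since shScr replicates 3 and 4 have no partner, 13 members were above 0, and the sign turned for *NCL* (-0.17), *NPM1* (-0.13), *NOLC1* (-0.13), *LYAR* (-0.19), *POLR1B* (-0.11), *FBL* (0.041), *NOP56* (-0.019), *NOP58* (-0.19), *RRP9* (-0.070), *DKC1* (-0.10), *UTP20* (-0.076), *RRP12* (-0.069), *WDR43* (-0.20), *IMP4* (-0.10), *TSR1* (-0.077), *PES1* (-0.14), *WDR12* (-0.31), *NOP16* (-0.15), *NIP7* (-0.078), *MRTO4* (-0.073), *DDX21* (-0.20), *CTPS1* (-0.11), *PPAT* (-0.24) and *GART* (-0.12). Without shScr replicate 4 and shEN1 #2 replicate 1, 31 were above 0, 1 member did not overlap (3.33% of all genes), and the sign turned for *NOP58* (-0.026), *PES1* (-0.0031), *WDR12* (-0.059) and *PPAT* (-0.025). Without shScr replicate 3 and shEN1 #1 replicate 1, 23 were above 0, 2 did not overlap (3.54% of all genes), and the sign turned for *NCL* (-0.017), *NPM1* (-0.12), *LYAR* (-0.037), *POLR1B* (-0.00060), *FBL* (0.022), *NOP58* (-0.12), *DKC1* (-0.025), *WDR43* (-0.010), *WDR12* (-0.11), *NIP7* (-0.011), *MRTO4* (-0.0068), *DDX21* (-0.046), *PPAT* (-0.043) and *GART* (-0.033). Without all 4 of these, 21 were above 0, 22 did not overlap (43.4% of all genes), and the sign turned for *NCL* (-0.064), *NPM1* (-0.22), *LYAR* (-0.11), *POLR1B* (-0.031), *FBL* (0.12), *NOP56* (-0.021), *NOP58* (-0.23), *DKC1* (-0.058), *NHP2* (0.10), *WDR43* (-0.046), *WDR12* (-0.23), *NOP16* (-0.0044), *NIP7* (-0.11), *MRTO4* (-0.021), *DDX21* (-0.14), *CTPS1* (-0.025), *PPAT* (-0.11) and *GART* (-0.063). These fits hold fewer libraries; the cause was not tested.

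Leaving out 1 library at a time gave 17 to 39 members above 0 (17 without shScr replicate 4), a median of -0.0078 to 0.125 and 0 to 1 member without overlap (0.994% to 1.93% of all genes, and 1.93% without shScr replicate 4 and 1.88% without shEN1 #1 replicate 1, where it was 1). The members whose sign turned had ranges of *BOP1* -0.065 to 0.25, *CTPS1* -0.016 to 0.18, *DDX18* -0.29 to 0.13, *DDX21* -0.039 to 0.20, *FBL* -0.17 to 0.12, *GAR1* -0.014 to 0.11, *GART* -0.075 to 0.13, *GNL3* -0.17 to 0.10, *GRWD1* -0.068 to 0.15, *IMPDH2* -0.13 to 0.090, *LYAR* -0.058 to 0.21, *MRTO4* -0.052 to 0.076, *NCL* -0.031 to 0.14, *NOLC1* -0.067 to 0.26, *NOP16* -0.095 to 0.12, *NOP58* -0.076 to 0.11, *NPM1* -0.11 to 0.14, *ODC1* -0.0032 to 0.25, *PAICS* -0.10 to 0.10, *PES1* -0.091 to 0.10, *POLR1B* -0.021 to 0.14, *PPAN* -0.015 to 0.26, *PPAT* -0.15 to 0.14, *RRP12* -0.049 to 0.23, *RRP9* -0.043 to 0.15, *WDR12* -0.14 to 0.15, *WDR43* -0.075 to 0.15 and *WDR74* -0.083 to 0.11.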

Other observations

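Among polyamine genes outside the member list, 3 that had their lowest or highest values in shScr replicate 4 and shEN1 #2 replicate 1 are given here. Of all genes, 19.2% had both lowest places in this pair and 18.9% both highest places. The remaining polyamine genes are not described, so no pattern of the pathway can be read from these. *AMD1*, which supplies the aminopropyl groups that *SRM* uses, had 218, 217, 163 and 141 CPM in shScr replicates 1 to 4, 213 and 190.4 CPM in shEN1 #1 and 150.2 and 175 CPM in shEN1 #2 (log2 fold change -0.020, SE 0.17), lowest in the pair in which *ODC1* was lowest. *OAZ2*, which encodes an antizyme that directs the ODC1 protein to degradation, had 71.4, 73.1, 81.2 and 92.3 CPM in shScr, 66.4 and 65.7 CPM in shEN1 #1 and 88.2 and 73.4 CPM in shEN1 #2 (log2 fold change -0.11, SE 0.13), highest in that pair. *PAOX*, an oxidase that breaks polyamines down, had 2.11, 1.51, 1.81 and 4.83 CPM in shScr, 2.32 and 2.59 CPM in shEN1 #1 and 5.26 and 3.38 CPM in shEN1 #2, also highest there. All 3 had an adjusted p of 1.00 between the labels from edgeR. *AMD1* and *OAZ2* were named after their values were seen, and *PAOX* by the size of its log2 fold change between the labels. No difference between the pair and the other libraries was tested.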
